A study of Homo sapiens with 15 samples.

Results

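The effect of ABC294640 on C42B prostate cancer cells was measured after 6 h as the difference between all arrays with this compound and all arrays without a kinase inhibitor, with enzalutamide held as a covariate. The comparison used 9 of the 15 arrays of the series. The 4 arrays with ABC294640 were 1 of cells given 15 µM ABC294640 alone and 3 of cells given 15 µM ABC294640 together with 10 µM enzalutamide. The 5 arrays without a kinase inhibitor were 3 of cells given 0.125% dimethyl sulfoxide (DMSO), the vehicle, and 2 of cells given 10 µM enzalutamide. The linear model had 1 term for enzalutamide, 1 for ABC294640 and no interaction, and was fitted to 17687 genes. The other 6 arrays held 15 µM PF-543, 3 of them alone and 3 with 10 µM enzalutamide, and serve below as a second kinase inhibitor at the same dose and time. C42B is a derivative of the human prostate cancer line LNCaP that grows after castration of its host, and all 6 groups were grown in medium with 10% serum. No label states that replicate arrays came from separate cultures, and the p-values therefore cover only the spread among these samples, which may be technical.

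Sphingosine kinases phosphorylate sphingosine, a breakdown product of ceramide, to sphingosine 1-phosphate (S1P). S1P is exported and acts on a family of G protein-coupled receptors, while ceramide and sphingosine are linked to growth arrest and cell death, so that the kinases sit between lipids of opposing action. ABC294640 (opaganib) was developed as an inhibitor of sphingosine kinase 2 and is also known to act on dihydroceramide desaturase, the last enzyme of ceramide synthesis from serine. PF-543 is an inhibitor of sphingosine kinase 1, and enzalutamide is a drug against the androgen response.

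Values are log2 expression per gene after the authors' RMA processing, in which 1 unit is a 2-fold difference and array medians lay between 6.71 and 6.76. The 3 DMSO arrays stood apart from the other 6 of the comparison. On the first principal component of the 9 arrays, which held 22.0% of the variance, they lay between 15.7 and 22.2, and the ABC294640 array at -5.0, the enzalutamide arrays at -9.9 and -7.6, and the combination arrays between -12.6 and -9.3. The difference without enzalutamide rests on these DMSO arrays and on the single ABC294640 array. For the genes shown array by array against the controls, the difference within enzalutamide-treated cells, from 5 arrays, is therefore given too. The label was checked against cell type markers. All 11 measured markers of luminal prostate epithelium had means above the median gene (7.06), from 9.50 for TMPRSS2 to 15.93 for KLK3. None of the measured markers of basal epithelium (4), neuroendocrine cells (7), leukocytes (6) or endothelium (5) did, and 2 of 8 of fibroblasts and smooth muscle did, the higher being COL1A2 at 9.16. The 11 levels summed to 150.7 on the ABC294640 array against 150.2 to 150.4 with DMSO, and to 148.6 to 148.7 with the combination against 148.8 to 149.2 with enzalutamide. The fibroblast and smooth muscle levels summed to 49.1 on the ABC294640 array against 51.6 to 52.7 with DMSO, and to 49.4 to 50.5 with the combination against 49.8 to 49.9 with enzalutamide. Those of endothelium summed to 20.0 against 21.9 to 22.3, and to 21.4 to 22.1 against 20.8 to 21.2. The part of these shifts in the results was not tested. The cells were labelled as a single line, and bulk RNA gives no count of cells, so these sums describe the RNA of marker genes only.

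No single gene separated cells with ABC294640 from cells without it beyond the spread between arrays, once p-values were adjusted. Of 17687 genes, 0 (0%) passed an adjusted p of 0.05 in limma, in either direction. The smallest unadjusted p was 0.000111, for LGI1, and the smallest adjusted p was 0.488. A gene would have needed a p of 2.83e-06 to pass alone. At an unadjusted p under 0.05, 515 genes (2.91%) were on the higher side and 642 (3.63%) on the lower. The arrays with ABC294640 lay entirely above their controls in both backgrounds for 503 genes (2.84%) and entirely below for 541 (3.06%). The estimate was above 0 for 8719 genes (49.3%), and the median difference over all genes was -0.003.

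The intervals set the size of the ABC294640 effect, averaged over both backgrounds, that these arrays leave possible. They do not bound the difference within either background alone. The median standard error of that difference was 0.197 without enzalutamide and 0.155 with it. For the averaged ABC294640 difference it was 0.126, and the 95% interval reached a median of 0.280 to either side of the estimate, with quartiles of 0.229 and 0.349. For 17617 genes (99.6%) the interval lay within a 2-fold difference in either direction, and for 15050 (85.1%) within a 1.5-fold difference. No gene (0) had an interval that lay wholly beyond 1.5-fold. The estimate itself reached 1.5-fold for 53 genes and 2-fold for 1, USP26, a testis-expressed ubiquitin protease. USP26 read 4.75, 5.71 and 5.51 on the DMSO arrays and 3.39 on the ABC294640 array, 4.28 and 4.35 on the enzalutamide arrays, and 3.85, 3.46 and 3.67 on the combination arrays. Its arrays with ABC294640 were the lowest in both backgrounds, and the DMSO arrays alone spread over almost 1 log2 unit. The difference was -1.15 (95% interval -1.75 to -0.54, adjusted p = 0.545 by limma), with -1.93 without enzalutamide and -0.66 with it. The number of arrays limits this precision, and the fit lends the lone array of ABC294640 without enzalutamide the spread of the others.

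Taken separately, the backgrounds gave differences that bore almost no relation to each other across genes. The additive estimate weights the difference with enzalutamide by 0.615 and that without by 0.385. Combination minus enzalutamide called 0 genes, with a smallest adjusted p of 0.558 and 1058 genes (5.98%) at an unadjusted p under 0.05. ABC294640 minus DMSO also called 0, with a smallest adjusted p of 0.424 and 1522 genes (8.61%) at an unadjusted p under 0.05. These comparisons share no array. Across the 17687 genes, which are not independent replicates, Pearson's r between them was 0.0117 and Spearman's rho 0.0135, and 50.8% of genes had the same sign. The SD of the differences over genes was 0.278 without enzalutamide, where 1 array stands against 3, and 0.200 with it.

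**Figure D1:**
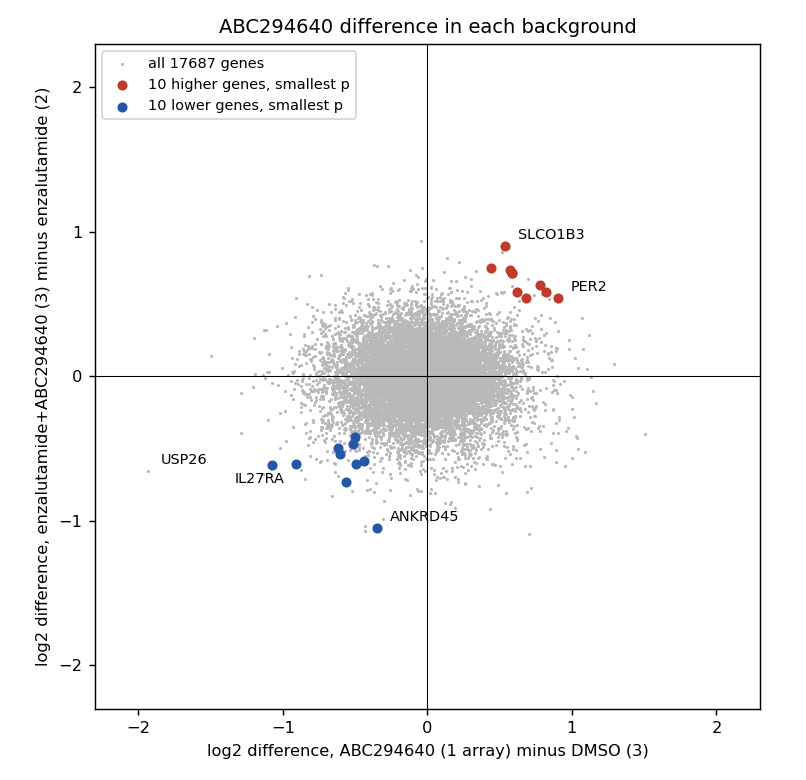
Log2 difference of each of 17687 genes for ABC294640 (1 array) minus DMSO (3 arrays) on the x axis and for enzalutamide+ABC294640 (3 arrays) minus enzalutamide (2 arrays) on the y axis. Red and blue points are the 10 higher and 10 lower genes with the smallest p in the additive fit, none past the threshold. The cloud is wider along x (SD over genes 0.278) than along y (0.200) and shows no tilt, with Pearson's r of 0.0117.

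Whether the ABC294640 difference itself depended on enzalutamide was tested with the interaction term. It called 0 genes in limma, with a smallest p of 9.2e-05, a smallest adjusted p of 0.509 and 1299 genes (7.34%) at an unadjusted p under 0.05. The median standard error of the interaction was 0.251, so this test is coarser than that of the additive effect. The 3 genes with the smallest p were SLC17A7, a vesicular glutamate transporter, HOPX, a homeodomain-only cofactor, and SYT17, a synaptotagmin. SLC17A7 differed by -0.78 without enzalutamide and by 0.40 with it, HOPX by 0.49 and -0.75, and SYT17 by 0.96 and -0.38. The adjusted p was 0.509 for each.

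Since no gene passed, the 10 genes with the smallest p in each direction are described by their values only. On the higher side these were SLCO1B3, HMOX1, CFAP43, H2BC26, STARD5, TEAD2, ZSCAN32, PER2, ZFP14 and THBS1, with differences of 0.60 to 0.76. On the lower side they were LGI1, USHBP1, IGF2BP2, PKD1L3, PTPRD, ANKRD45, IL27RA, EHHADH, HRH2 and KCNC4, with differences of -0.79 to -0.45. The adjusted p was 0.488 for each of the 20. All 20 had arrays apart from their controls in both backgrounds, which a small p in this fit favours. The lower genes had means of 3.88 to 5.98 over the 9 arrays, all 10 under the array medians, and 5 of the 10 higher genes were also under them. The first quartile of each array, a measure of the dim range, was also lower with ABC294640, at 4.59 against 4.65 to 4.69 with DMSO, and at 4.57 to 4.60 with the combination against 4.61 and 4.63 with enzalutamide. Its part in the lower genes was not tested.

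HMOX1 encodes heme oxygenase 1, which breaks down heme and is a standard target of the oxidant sensor NRF2. It read 6.36, 6.24 and 6.36 on the DMSO arrays and 6.94 on the ABC294640 array, then 6.03 and 6.34 on the enzalutamide arrays and 6.60, 6.74 and 6.97 on the combination arrays. Every array with ABC294640 lay above every array without it, whatever the background. The share of all genes with such a separation was not counted, and the choice of genes by small p favours it. The difference was 0.60 (1.51-fold, 95% interval 0.35 to 0.84), from 0.62 without enzalutamide and 0.58 with it.

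STARD5 encodes a sterol-binding protein of the START family. Its values were 7.99, 8.29 and 8.07 with DMSO, 8.94 with ABC294640, 8.43 and 8.09 with enzalutamide, and 8.74, 8.70 and 9.09 with the combination. Again all 4 arrays with ABC294640 lay above all 5 without it. The difference was 0.68 (95% interval 0.38 to 0.97), with 0.82 without enzalutamide and 0.58 with it.

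PER2 is a repressor of the circadian clock, and it read 6.56, 6.81 and 6.75 with DMSO and 7.61 with ABC294640, against 7.16 and 6.90 with enzalutamide and 7.38, 7.47 and 7.86 with the combination. The difference was 0.68, with 0.90 without enzalutamide and 0.54 with it. H2BC26, a histone H2B gene, read 7.58, 7.26 and 7.55 with DMSO, 7.90 with ABC294640, 7.37 and 7.25 with enzalutamide and 8.06, 7.89 and 8.22 with the combination, a difference of 0.63 (0.44 without enzalutamide and 0.75 with it). For both genes all 4 arrays with ABC294640 lay above all 5 without it. SLCO1B3 encodes a liver-type organic anion transporter. It read 3.95, 3.65 and 4.10 with DMSO, 4.44 with ABC294640, 3.82 and 3.54 with enzalutamide and 4.60, 4.71 and 4.44 with the combination, all in the dim range of these arrays, and differed by 0.54 without enzalutamide and 0.90 with it.

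THBS1, which encodes the matrix protein thrombospondin 1, shows what the enzalutamide term does in this model. It read 9.24, 9.04 and 9.37 with DMSO, 9.79 with ABC294640, 8.26 and 7.63 with enzalutamide and 8.69, 8.67 and 8.68 with the combination. The combination arrays lay above the enzalutamide arrays but below every DMSO array, so the arrays with and without ABC294640 are apart only within a background. The difference was 0.67, with 0.57 without enzalutamide and 0.74 with it.

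Among the lower genes, LGI1, a secreted neuronal protein, read 5.25, 5.24 and 5.20 with DMSO and 4.32 with ABC294640, and 5.50 and 5.30 with enzalutamide and 4.94, 4.54 and 4.91 with the combination. The difference was -0.72 (95% interval -0.99 to -0.46), with -0.91 without enzalutamide and -0.60 with it. IGF2BP2, an RNA-binding protein that stabilises transcripts, read 6.00, 6.02 and 5.78 with DMSO, 5.44 with ABC294640, 5.84 and 5.85 with enzalutamide and 5.13, 5.22 and 5.36 with the combination, a difference of -0.56 (-0.49 and -0.61). IL27RA, a cytokine receptor gene, read 5.59, 5.13 and 5.73 with DMSO, 4.41 with ABC294640, 5.62 and 5.38 with enzalutamide and 5.04, 4.89 and 4.73 with the combination, a difference of -0.79 (-1.07 and -0.61). In all 3 genes the 4 arrays with ABC294640 were the lowest of the 9.

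**Figure D2:**
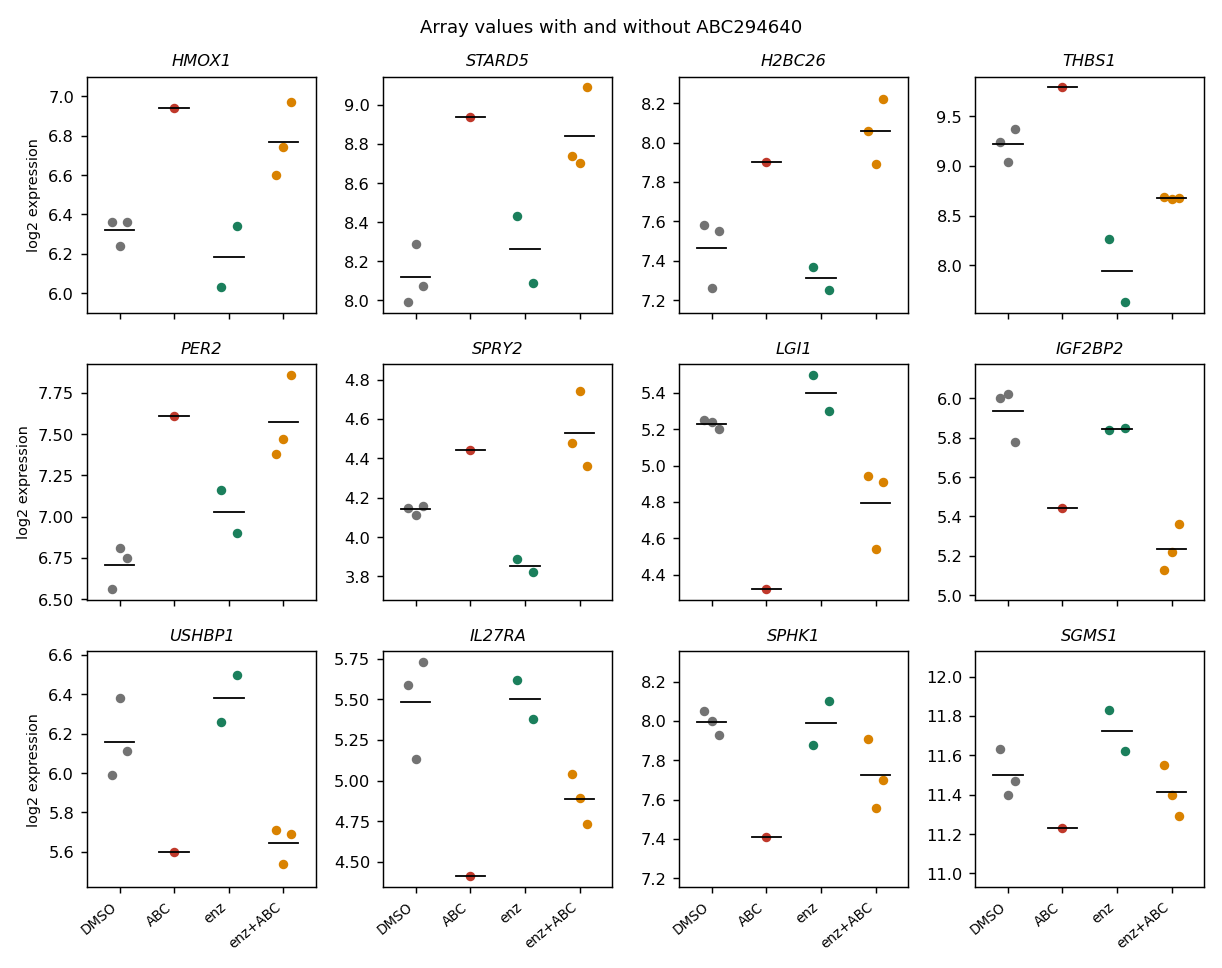
Log2 expression (y axis, a scale of its own in each panel) on every array of 12 genes, by group on the x axis: DMSO (3 arrays), ABC294640 (ABC, 1), enzalutamide (enz, 2) and enzalutamide+ABC294640 (enz+ABC, 3). Points are arrays and bars are group means. HMOX1, STARD5, PER2 and H2BC26 are higher on all 4 arrays with ABC294640 than on all 5 without it, LGI1, IGF2BP2, USHBP1 and IL27RA lower, with adjusted p of 0.488 each.

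The sphingolipid genes, which surround the target of the compound, were measured for 42 of 47 listed members, and 0 passed the threshold. At an unadjusted p under 0.05, 2 were on the higher side and 5 on the lower, and the arrays were apart in both backgrounds for 2 higher and 4 lower members. Over all genes these shares were 2.91% higher and 3.63% lower by p, and 2.84% and 3.06% by arrays apart. The median difference was -0.02 (-0.04 within enzalutamide-treated cells), and all 42 intervals lay within a 2-fold difference. The kinase that ABC294640 is directed at is not analysed here.

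SPHK1 encodes the other sphingosine kinase, the enzyme that PF-543 inhibits. It read between 7.93 and 8.05 on the 3 DMSO arrays and 7.41 on the ABC294640 array, and 7.88 and 8.10 on the enzalutamide arrays and 7.91, 7.56 and 7.70 on the combination arrays. The ABC294640 array was the lowest of the 9, while 1 combination array lay between the enzalutamide arrays. The difference was -0.39 (SE 0.11, 95% interval -0.64 to -0.14), with an unadjusted p of 0.00635 and an adjusted p of 0.685. Within enzalutamide-treated cells it was -0.27 and its 95% interval, -0.57 to 0.04, contained 0, while without enzalutamide it was -0.58. It was the member of the S1P list with the smallest p.

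The other 11 measured genes of S1P breakdown, export and signalling had unadjusted p of 0.05 or above. Among the receptors, the difference was -0.33 for S1PR5, -0.19 for S1PR1, 0.20 for S1PR3 and 0.23 for S1PR2. It was 0.10 for SGPL1, the lyase that degrades S1P irreversibly, and -0.14 for the exporter SPNS2, whose arrays with ABC294640 were apart on the lower side. The median of the 12 was 0.005, and 8 intervals lay within 1.5-fold.

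The synthesis of ceramide from serine showed the narrowest range of these lists. Its 10 measured members, of 11, differed by -0.18 (DEGS2) to 0.16 (SPTLC1), and all 10 intervals lay within 1.5-fold. DEGS1, the dihydroceramide desaturase that ABC294640 also acts on, read 15.33, 15.25 and 15.18 with DMSO, 15.40 with ABC294640, 15.32 and 15.32 with enzalutamide and 15.22, 15.17 and 15.50 with the combination. The groups overlap, and its difference was 0.04 (95% interval -0.18 to 0.27), with -0.02 within enzalutamide-treated cells. Of the ceramide synthases, which attach the fatty acid, 5 of 6 were measured, with a median of -0.14, which was -0.33 without enzalutamide and -0.01 with it. CERS4 had the smallest p, with a difference of -0.30, and CERS2, the very-long-chain synthase, stood at -0.14.

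The enzymes that use or release ceramide held the widest differences. Of 15 measured members, of 16, the arrays with ABC294640 were apart in both backgrounds on the higher side for UGCG alone (2.84% of all genes were). They were apart on the lower side for SGMS1, GBA2 and ACER2 (3.06% of all genes were). At an unadjusted p under 0.05, 2 members were higher and 3 lower, beside 2.91% and 3.63% of all genes. UGCG, which makes glucosylceramide, read 7.02, 6.45 and 6.35 with DMSO, 7.15 with ABC294640, 6.78 and 6.63 with enzalutamide and 6.92, 7.03 and 7.13 with the combination. The difference was 0.41 (95% interval 0.08 to 0.74, adjusted p = 0.694 by limma), and 1 DMSO array lay among the combination arrays. Within enzalutamide-treated cells UGCG differed by 0.32, with an interval of -0.11 to 0.75 that contained 0. SGMS1, the Golgi sphingomyelin synthase, read 11.63, 11.40 and 11.47 with DMSO, 11.23 with ABC294640, 11.83 and 11.62 with enzalutamide and 11.55, 11.40 and 11.29 with the combination, a difference of -0.30 (-0.31 within enzalutamide-treated cells). SGMS2, the plasma membrane form, stood on the opposite side at 0.47, from 1.02 without enzalutamide and 0.13 with it, and its combination arrays (7.51, 7.19 and 7.44) overlapped the enzalutamide arrays (7.47 and 7.04). GBA2, a glucosylceramidase, differed by -0.25 and ACER2, the Golgi ceramidase, by -0.21, and within enzalutamide-treated cells by -0.18 and -0.15.

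**Figure D3:**
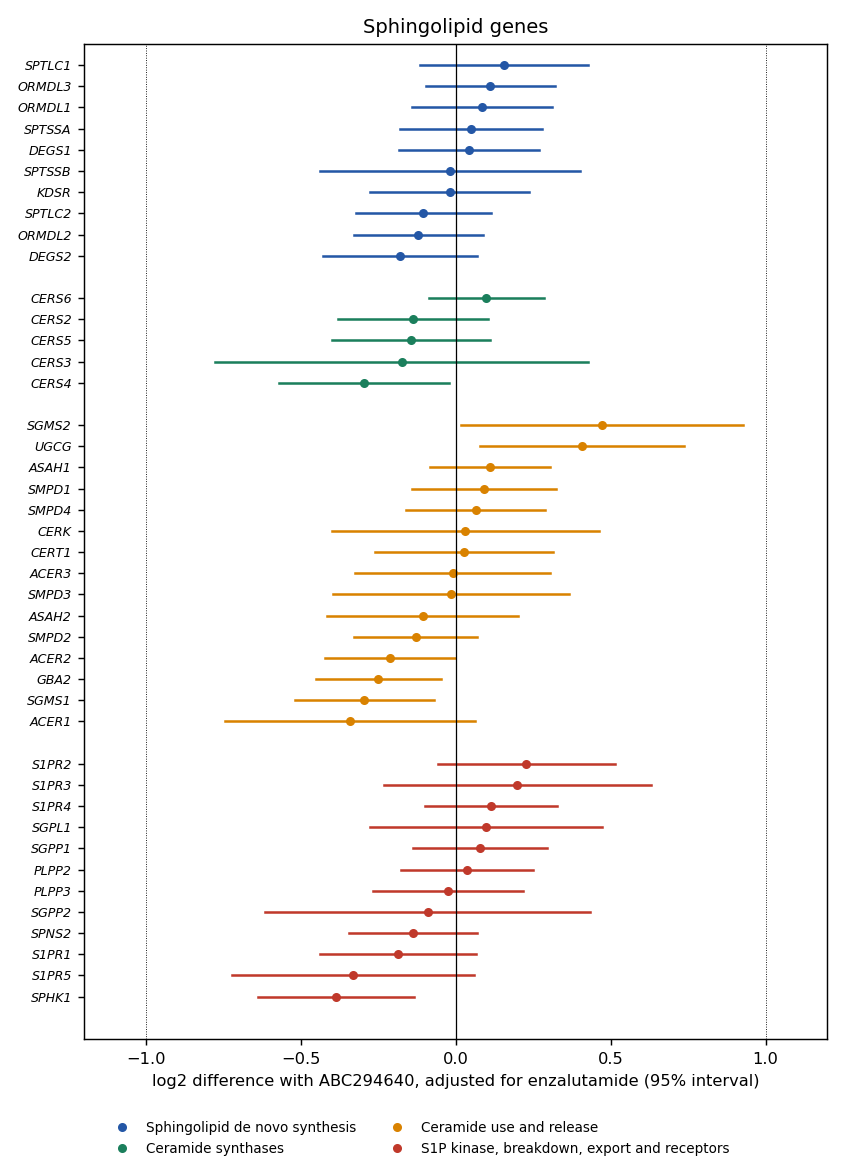
ABC294640 difference (x axis, log2, adjusted for enzalutamide) of the 42 measured sphingolipid genes, with points for estimates and lines for 95% intervals, coloured by list. Dotted lines mark 2-fold. All intervals lie between the dotted lines, and those of 7 genes, SPHK1 and UGCG among them, leave out 0 without passing the adjusted threshold.

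Beyond the sphingolipid genes, 0 members passed the threshold in any of the other 25 lists. Over all 29 lists together, 465 of 536 distinct members were measured. Of these, 21 were on the higher and 14 on the lower side at an unadjusted p under 0.05, beside 2.91% and 3.63% of all genes. The median difference was 0.01 (0.03 without enzalutamide and -0.002 with it), and 422 of the 465 intervals lay within 1.5-fold.

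The androgen response, which enzalutamide blocks, was read from 25 androgen-induced genes, with a median ABC294640 difference of 0.07, and 13 androgen-repressed genes, also with a median of 0.07. KLK3, the prostate-specific antigen, read 16.18, 16.22 and 16.23 with DMSO and 16.04 with ABC294640, and 15.83 and 15.75 with enzalutamide and 15.82, 15.66 and 15.67 with the combination. The combination arrays overlapped the enzalutamide arrays, and the difference was -0.11 (95% interval -0.30 to 0.08), with -0.07 within enzalutamide-treated cells. Among the induced genes 3 were on the higher side at an unadjusted p under 0.05, namely MAF (0.45), ZBTB16 (0.29) and C1orf116 (0.22), and 1 on the lower, TMEFF2 (-0.45), of 25 measured, beside 2.91% and 3.63% of all genes. UGT2B15, a repressed gene whose enzyme glucuronidates androgens, differed by -0.65 (95% interval -1.10 to -0.20, adjusted p = 0.686 by limma), with its arrays apart on the lower side. Within enzalutamide-treated cells it differed by -0.57, with an interval of -1.18 to 0.03 that contained 0.

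MYC, the growth regulator, read 13.99, 14.07 and 13.98 with DMSO and 14.31 with ABC294640, against 14.60 and 14.59 with enzalutamide and 14.54, 14.55 and 14.66 with the combination. Only without enzalutamide was it apart, and the difference was 0.11 (95% interval -0.10 to 0.31), with -0.01 within enzalutamide-treated cells. The 14 genes of MYC and ribosome biogenesis had a median of 0.03, with all 14 intervals within 1.5-fold. NPM1, a nucleolar chaperone (0.18), had the smallest p of that list. Among 25 ribosomal protein genes the median was 0.02, with RPS19 at -0.14.

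Most members of the stress lists had intervals within a 1.5-fold difference, as did 85.1% of all genes. The 19 genes of the unfolded protein response had a median of 0.01, and all 19 intervals lay within 1.5-fold, with the chaperone gene DNAJB9 (-0.24) at the smallest p. ATF4 drives the integrated stress response, and 36 of its 37 listed targets lay within it, with a median of 0.05. At an unadjusted p under 0.05, PSPH, a serine synthesis enzyme (0.32), and CHAC1 were on the higher side and ALDH1L2, a mitochondrial folate enzyme (-0.36), on the lower, beside 2.91% and 3.63% of all genes. The arrays were apart for 1 member on the higher side, CHAC1, and 4 on the lower, namely ALDH1L2, SLC38A2 (-0.18), PHGDH (-0.10) and XPOT (-0.07), beside 2.84% and 3.06% of all genes. CHAC1, which degrades glutathione, read 10.54, 10.63 and 10.71 with DMSO and 10.73 with ABC294640, and 11.94 and 11.69 with enzalutamide and 12.33, 12.11 and 12.12 with the combination. The difference was 0.27 (95% interval 0.03 to 0.51, unadjusted p 0.0301, adjusted p = 0.719 by limma), with 0.10 without enzalutamide and 0.37 with it. DDIT4, an inhibitor of mTORC1 signalling, differed by 0.06 (95% interval -0.21 to 0.32). Of 22 NRF2 targets, HMOX1 and SRXN1, a peroxiredoxin repair enzyme (0.29), were on the higher side at an unadjusted p under 0.05 (2.91% of all genes were), with a list median of 0.06. In the 15 heat shock genes the median was -0.05, and HSPA1A, an inducible chaperone, stood at -0.27 on the same test.

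In the autophagy and lysosome list of 24 genes the median was -0.02, with 2 members on the higher side and 1 on the lower at an unadjusted p under 0.05, beside 2.91% and 3.63% of all genes. MAP1LC3B, which encodes an autophagosome membrane protein, read 9.24, 9.76 and 9.81 with DMSO, 9.88 with ABC294640, 9.56 and 9.16 with enzalutamide and 10.02, 10.07 and 9.75 with the combination. The difference was 0.47 (95% interval 0.12 to 0.82, adjusted p = 0.686 by limma), and the ABC294640 array lay just above the DMSO arrays (0.28 without enzalutamide and 0.59 with it). GABARAPL1, of the same protein family, stood at 0.25 and ATG14, a subunit of the autophagy lipid kinase, at -0.29.

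Feedback inhibitors of ERK signalling were 13 genes with a median of 0.08, which was -0.06 without enzalutamide and 0.17 with it. SPRY2, a Sprouty inhibitor of receptor tyrosine kinase signalling, read 4.15, 4.11 and 4.16 with DMSO, 4.44 with ABC294640, 3.89 and 3.82 with enzalutamide and 4.48, 4.74 and 4.36 with the combination. All 4 arrays with ABC294640 lay above all others in this dim gene, with a difference of 0.53 (95% interval 0.27 to 0.78, adjusted p = 0.495 by limma), from 0.30 without enzalutamide and 0.67 with it. The phosphatase genes DUSP4 (0.25) and DUSP5 (-0.44) stood on opposite sides.

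Proliferation and survival genes had medians of 0.05 for 19 G1/S and replication genes, 0.03 for 20 G2/M genes, 0.05 for 15 genes of the BCL2 family and -0.01 for 17 p53 targets. The unadjusted p was under 0.05, as for 2.91% of all genes on the higher side, for CDT1 (0.25), KIF11 (0.33), BIRC5 (0.27) and GADD45A (0.38) and for 0 members of the BCL2 family, where the death agonist gene BID had the smallest p (0.27).

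Cholesterol synthesis and uptake, which returns below, had a median ABC294640 difference of -0.03 over 19 genes, with values from -0.25 to 0.20, 18 intervals within 1.5-fold and the smallest p for PMVK (-0.18), the phosphomevalonate kinase of the early pathway. Fatty acid synthesis had a median of -0.01 over 11 genes, with THRSP, a lipogenic nuclear protein, at -0.38. The 8 remaining lists had medians between -0.08 (14 oestrogen-responsive genes) and 0.06 (16 interferon genes). Their members with the smallest p were ZFP36 (0.33) of the immediate early genes, NFKBIE (0.28) of the NF-kB targets, ALDOC (-0.22) of hypoxia and glycolysis, IRF9 (0.37) of the interferon genes and GREB1 (0.24) of the oestrogen genes. In the metallothionein list it was MT2A (-0.14), in xenobiotic metabolism CYP3A4 (-0.59) and among the FOXO targets FBXO32 (0.28), with 0 of all these past the adjusted threshold.

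**Figure D4:**
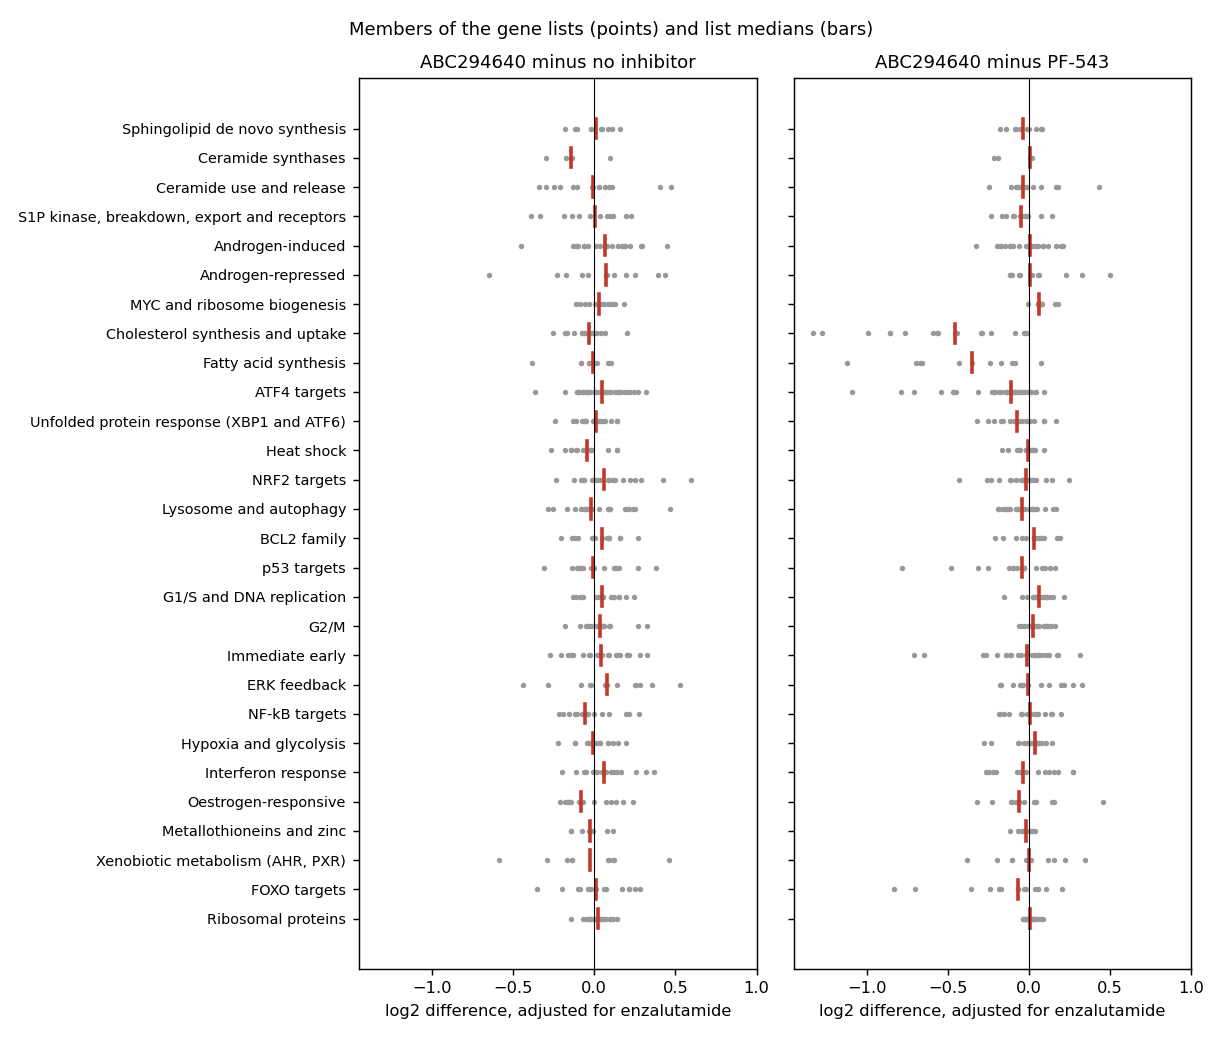
Log2 difference, adjusted for enzalutamide (x axis), of each measured member (grey points) and the median (red bar) of 28 of the 29 gene lists (rows), for ABC294640 minus no kinase inhibitor (left, 9 arrays) and ABC294640 minus PF-543 (right, 10 arrays). Medians on the left lie between -0.14 and 0.08, and on the right cholesterol synthesis and fatty acid synthesis lie at -0.46 and -0.35.

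Setting ABC294640 against PF-543, at 15 µM each for 6 h, did separate the inhibitors, in lipid synthesis genes and in others such as DDIT4. This test, of 1 pair of compounds, used the 10 arrays with a kinase inhibitor and no control array. It called 19 of 17687 genes (0.107%), 18 lower with ABC294640 than with PF-543 (0.102%) and 1 higher (0.00565%). For all 19, the arrays of the 2 inhibitors were apart both with and without enzalutamide, which a small p in this fit favours. The share of all genes apart in this way was not counted. Of 19 measured genes of cholesterol synthesis and uptake, 8 were lower, namely INSIG1, MSMO1, HMGCS1, STARD4, IDI1, LSS, SQLE and DHCR7, and the list median was -0.46 against -0.003 over all genes. Of 11 genes of fatty acid synthesis 3 were lower, with a median of -0.35. These lists were drawn up with earlier results of these arrays known.

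INSIG1 encodes a sterol-sensing anchor of the SREBP pathway, in which the membrane-bound factor SREBP2 is released when sterols are low and turns on cholesterol synthesis. MSMO1 encodes the sterol methyl oxidase of the late pathway. The 250 bases before the start of each gene are shown because these genes had the largest differences between the inhibitors. Capitals mark CCAAT, the box bound by NF-Y, a usual partner of SREBP, and CACNCCAC, a short form of the sterol regulatory element, each on either strand (a match on the reverse strand shows as the reverse complement, such as ATTGG). Sequences are from RefSeq (GRCh38.p14), both on the forward strand, INSIG1 at chr7:155297628-155297877 and MSMO1 at chr4:165327419-165327668.
INSIG1: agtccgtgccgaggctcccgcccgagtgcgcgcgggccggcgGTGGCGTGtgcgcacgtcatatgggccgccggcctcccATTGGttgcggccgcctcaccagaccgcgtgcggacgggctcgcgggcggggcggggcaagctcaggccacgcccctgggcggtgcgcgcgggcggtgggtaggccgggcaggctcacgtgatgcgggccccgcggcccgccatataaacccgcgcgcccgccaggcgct
MSMO1: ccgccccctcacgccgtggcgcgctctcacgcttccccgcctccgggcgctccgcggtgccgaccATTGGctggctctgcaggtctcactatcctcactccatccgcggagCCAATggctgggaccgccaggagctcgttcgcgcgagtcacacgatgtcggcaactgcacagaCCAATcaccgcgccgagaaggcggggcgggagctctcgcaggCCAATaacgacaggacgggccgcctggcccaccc
INSIG1 held 1 match to each motif and MSMO1 4 matches to CCAAT. The table had promoters for 7 of the 8 genes, and all 7 held CCAAT in at least 1 entry. Only INSIG1 and IDI1 held CACNCCAC, and none held the longer TCACNCCAC, which 1.09% of all genes held. Of 35116 promoter windows of this length, 32.0% held CCAAT and 4.87% CACNCCAC, and of 27305 genes 37.0% held CCAAT and 5.89% CACNCCAC in at least 1 window. The motifs were chosen after the values were seen, and a match describes letters, not a bound site.

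INSIG1 read 13.06 on the ABC294640 array against 14.59, 14.24 and 14.49 with PF-543. With enzalutamide it read 12.89, 12.56 and 12.51 with ABC294640 against 13.96, 14.04 and 13.88 with PF-543. The lowest PF-543 array thus stood above the highest ABC294640 array in each background. The difference was -1.33 (SE 0.10, adjusted p = 0.000612 by limma), or 2.52-fold lower.

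MSMO1 read 13.89 with ABC294640 against 15.17, 15.22 and 15.19 with PF-543, and 13.78, 13.48 and 13.49 against 14.76, 14.91 and 14.87 in the presence of enzalutamide. The difference was -1.28 (SE 0.08, adjusted p = 0.000175 by limma), or 2.42-fold lower. HMGCS1, which makes the substrate of HMG-CoA reductase, read 11.45 against 12.86, 12.86 and 12.66, and 10.99, 11.18 and 11.29 against 12.05, 11.81 and 12.04. Its difference was -0.99 (SE 0.12, adjusted p = 0.00668 by limma). The other called members were STARD4, a sterol carrier (-0.86), IDI1, the isopentenyl diphosphate isomerase (-0.85), LSS, the lanosterol synthase (-0.59), SQLE, the squalene epoxidase (-0.56), and DHCR7, of the last step to cholesterol (-0.44).

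ACSS2, which makes acetyl-CoA from acetate, read 9.07 with ABC294640 and 10.18, 10.18 and 10.33 with PF-543, and 8.78, 8.41 and 8.75 against 9.56, 9.76 and 9.93 with enzalutamide present. Its difference was -1.12 (SE 0.10). The other lower fatty acid genes included FASN, the fatty acid synthase (-0.67), and ELOVL6, an elongase (-0.66), and ACSL1, which activates long-chain fatty acids, stood at -0.69.

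Outside lipid synthesis, DDIT4 was the gene with the largest difference. It read 11.81 with ABC294640 against 12.87, 12.60 and 12.85 with PF-543, and 13.02, 12.86 and 12.79 against 13.93, 14.11 and 14.09 with enzalutamide present, a difference of -1.09 (SE 0.09, adjusted p = 0.000874 by limma). It was 1 of 37 ATF4 targets called, in a list with a median of -0.11. CDKN1A, the cell cycle inhibitor p21, differed by -0.78, and the FOXO targets TSC22D3, the glucocorticoid-induced leucine zipper gene, and CCNG2, a cyclin G, by -0.83 and -0.70. BHLHE40, a clock repressor, differed by -0.79 and PRKCH, a protein kinase C, by -0.53. The 1 higher gene was SULT1B1, a sulfotransferase, at 0.52 (SE 0.08, adjusted p = 0.0477 by limma), a dim gene that read 3.46 to 3.95 with ABC294640 and 3.05 to 3.55 with PF-543.

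Of the 18 lower genes, none (0) passed the test of ABC294640 against the controls, which 0 of all 17687 genes passed. Against the arrays without a kinase inhibitor, their ABC294640 differences ran from -0.32, for BHLHE40, to 0.10, with a median of -0.01, and all 18 intervals contained 0. The widest bounds of those 18 intervals were -0.77 and 0.46. Over all genes, 2.91% of intervals lay wholly above 0 and 3.63% wholly below. The PF-543 difference of the same genes, from an additive fit of all 15 arrays that shares the 5 control arrays, ran from 0.49 to 1.30. These genes were chosen for reading lower with ABC294640 than with PF-543 on the same arrays. That choice itself favours a PF-543 difference above the ABC294640 difference. INSIG1, for example, read 13.04, 13.04 and 13.00 with DMSO and 12.76 and 12.84 with enzalutamide. Its ABC294640 difference was -0.08 (95% interval -0.31 to 0.16), with -0.15 within enzalutamide-treated cells. In the fit of all 15 arrays PF-543 called 97 genes and ABC294640 called 0, at unequal numbers of arrays (6 and 4).

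**Figure D5:**
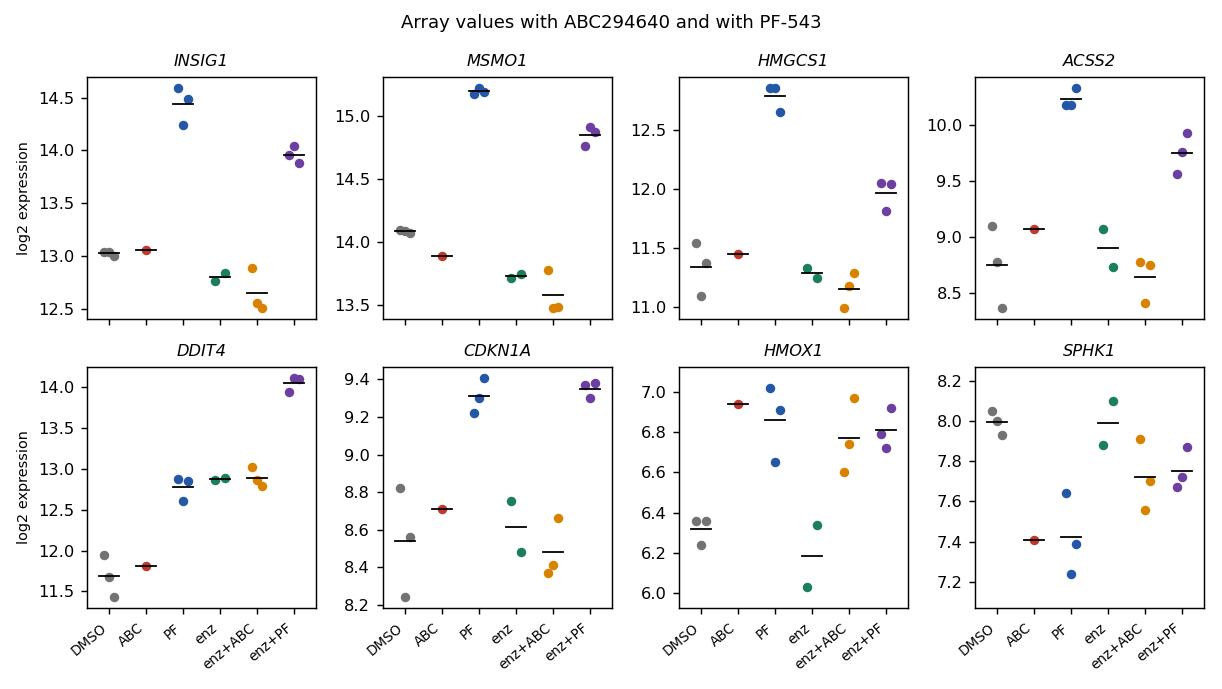
Log2 expression (y axis, a scale of its own in each panel) on all 15 arrays for 8 genes, by group on the x axis (ABC is ABC294640, PF is PF-543, enz is enzalutamide). Points are arrays and bars are group means. For INSIG1, MSMO1, HMGCS1, ACSS2, DDIT4 and CDKN1A the PF-543 arrays lie above the ABC294640 arrays within each background, while for HMOX1 and SPHK1 the inhibitors overlap.

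The calls between the inhibitors in the cholesterol list fell from 8 whichever array was left out, and furthest without the single ABC294640 array. Without that array the ABC294640 side held only enzalutamide-treated arrays. Then 8 genes were called, all among the 19, and 3 of the cholesterol list. Leaving out any other array left 6 cholesterol genes (enzalutamide+PF-543 replicate 1) or 5 (each of the other 8), and a fit of the 6 arrays that hold enzalutamide called 4 genes, 2 of them of the cholesterol list.

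Several genes at the edge of the ABC294640 effect had values close to those with PF-543. HMOX1 differed between the inhibitors by 0 (95% interval -0.23 to 0.23). Its difference from the shared control arrays was 0.60 for ABC294640 (fit of 9 arrays) and 0.58 for PF-543 (fit of all 15). In the fit of all 15 the ABC294640 difference was also 0.58. For HMOX1 only PF-543 passed the threshold there (adjusted p = 0.00811 by limma). SPHK1 differed by -0.02 (95% interval -0.25 to 0.20), beside -0.39 and -0.42 against those controls in the same 2 fits. In the fit of all 15 its ABC294640 difference was also -0.42. MAP1LC3B differed by -0.02 (95% interval -0.26 to 0.21) and UGCG by -0.06 (95% interval -0.33 to 0.21). A p that misses the threshold does not show that the compounds act alike, and these intervals give the differences that remain possible.

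In other genes the estimates of the inhibitors stood further apart without passing the threshold. H2BC26 differed by 0.60 (95% interval 0.30 to 0.91, adjusted p = 0.367 by limma) and PER2 by 0.62 (95% interval 0.18 to 1.06, adjusted p = 0.642 by limma), with PF-543 at 0.01 and 0.06 against the controls. STARD5 differed by 0.38 (95% interval 0.15 to 0.61). CHAC1 stood on the other side, at -0.47 (95% interval -0.66 to -0.28, adjusted p = 0.144 by limma).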

How the data were processed

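Values are log2 expression per probe set as deposited by the authors, made with RMA in Transcriptome Analysis Console 4.02 per the submitters' processing notes. No source used here names the RMA variant or the annotation. RMA brings arrays to a common distribution, so a change in most genes would not be seen, and no detection calls were used. RNA (100 ng per array) came from wells seeded with 140000 cells and treated after 3 days. Of 21448 probe sets, 17709 had 1 gene symbol, 0 several and 3739 were unnamed here; of 20 genes with several probe sets the brightest was kept. All 17709 matched RefSeq by Entrez identifier.

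Groups came from the labels. Limma 3.58.1 (R 4.3.3) fitted the additive model (6 residual and 4.19 prior degrees of freedom), the interaction (5 and 4.16) and ABC294640 minus PF-543 with an enzalutamide term (7 and 3.67), with Benjamini-Hochberg adjustment over 17687 genes at 0.05 and 95% intervals. Arrays are called apart where they do not overlap in either background. The rule for named genes took the 10 largest differences in each direction past the threshold or, where none passed, the 10 smallest p, plus SPHK1, DEGS1, MYC, KLK3, INSIG1, DDIT4 and CHAC1. It took the 5 largest in each direction between the inhibitors, the 3 smallest p of the interaction where none passed, and the called members or else the smallest p of each list. Other genes, such as USP26, UGCG and the other called genes, were picked after their values were seen. The comparison and the 29 lists were chosen with earlier results of these data known. Same-numbered arrays did not deviate together (26 pairs, correlations of deviations from -0.0369 to 0.0717). The fits were run on simulated data with independent noise and no enzalutamide effect, which checks the code and not the assumptions of the model. The 81 alternative fits are summarised in the closing section. Figures used matplotlib 3.10.9 in Python 3.11.15. Some genes are not analysed here.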

Additional observations from a re-analysis of the deposited data

How the results depend on the processing

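The count of 0 genes for the ABC294640 effect held under 22 of 24 alternatives. A robust and trended prior called 1 (ZFTA, -0.53, adjusted p = 0.0436 by limma), and an unadjusted p under 0.05 with at least 2-fold called 1 (USP26). The smallest adjusted p over these alternatives ran from 0.0436 to 0.793, and leaving out each array in turn gave 0 to 0. The interaction called 1 under the robust prior (TLK1, -1.29, adjusted p = 0.049 by limma), 0 under the other 16, and could not be fitted without the ABC294640 array. ABC294640 minus DMSO gave 0 to 1 without single arrays, the 1 being USP26 without DMSO replicate 1, and combination minus enzalutamide gave 0 throughout. Between the inhibitors 17 of 21 alternatives stayed within 1.5 times the 19 genes. The robust prior called 41 (18 of the 19 among them, 12 of the cholesterol list), the arrays with enzalutamide 4 (3 shared), and leaving out single arrays 8 to 19. The replicate number as a block, possible on the 9 numbered arrays, called 0 (smallest adjusted p 0.0574), and 0 for the ABC294640 effect on 8 arrays. No label states that equal numbers pair the arrays, same-numbered arrays did not deviate together, and the cause of these shifts was not tested. Over the alternatives, all 360 refits of the 19 genes kept their sign, with 264 past the threshold, and all 436 refits of the 20 genes of smallest p kept theirs, with 0 past it. Precision is limited by the number of arrays, and signal over background was not judged.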
